A study of Homo sapiens with 10 samples.

Results

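The genes of the bone morphogenetic protein (BMP), SMAD and inhibitor of DNA binding (ID) pathway described here are *ID1*, *ID2*, *ID3*, *SMAD3*, *SMAD6*, *SMAD7*, *SKIL*, *BMP4*, *BMPR1A* and *BMPR2*. They were taken by gene symbol, and all 10 have values in both expression tables, among the 13029 genes of the *ZMAT3* table and the 17642 genes of the siRNA table. All 10 libraries are RNA-seq of HCT116, a human colorectal cancer cell line grown without any drug. In the *ZMAT3* experiment, 3 *ZMAT3*-WT cultures of one clone were set beside 3 *ZMAT3*-KO cultures of another, both isolated as single cells after puromycin selection. In the *ZMAT3*-KO clone Cas9 and a pair of guides had been aimed at the p53 response element in an intron of *ZMAT3*. The replicates are therefore cultures of 1 clone per genotype, and a difference between genotypes cannot be told apart from a difference between clones. The labels of these 6 libraries also carry the abbreviations EV and unt, which are not explained. In the siRNA experiment, 2 cultures received a control siRNA (siCTRL) and 2 a pool of 4 siRNAs against p53 (sip53), for 72 hr.

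BMPs are secreted ligands of the TGF-β superfamily. They bind pairs of type I and type II receptor kinases, such as BMPR1A and BMPR2, which phosphorylate SMAD1, SMAD5 and SMAD9, while SMAD3 carries the signal of TGF-β and activin. The receptor SMADs enter the nucleus with SMAD4, and *ID1*, *ID2* and *ID3* are textbook BMP targets whose products bind E proteins and keep them from DNA. SMAD6, SMAD7 and SKIL (SnoN) are negative regulators of the pathway, and their genes are known to be induced by it. In the intestine BMP signals are known to restrain stem cells and to favour differentiation, and HCT116 cells are known to carry an inactivated *TGFBR2*, the type II receptor for TGF-β.

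The *ZMAT3* values are log2 CPM (counts scaled to a common library total) and the siRNA values were read as FPKM (scaled by both library total and transcript length). Neither table holds read counts, so the depth of the libraries is unknown. In the 6 *ZMAT3* libraries the linear values summed to between 999929 and 999931, and in the 4 siRNA libraries to between 708634 and 829230. *ZMAT3* followed the labels, going from 5.15 ± 0.13 log2 CPM in *ZMAT3*-WT to 2.26 ± 0.08 log2 CPM in *ZMAT3*-KO libraries (SD, n = 3). Of 8 epithelial markers, 5 are in the *ZMAT3* table, and their summed level was 5730 to 6060 CPM in *ZMAT3*-WT and 3140 to 3220 CPM in *ZMAT3*-KO libraries. Only the keratins *KRT8*, *KRT18* and *KRT19* were lower, *KRT19* going from 9.54 to 9.64 to 7.79 to 7.85 log2 CPM. *EPCAM* was at 8.51 to 8.56 and 8.54 to 8.58 log2 CPM, and *CDH1* at 6.28 to 6.36 and 6.32 to 6.41 log2 CPM. Of the same 8, the siRNA table lists all but one, and their sum was 3730 to 3960 FPKM with siCTRL and 3520 to 4160 FPKM with sip53. The intestinal markers *CDH17* and *VIL1* did not exceed 0.22 FPKM. Of 15 markers of fibroblasts, leukocytes and endothelial cells, 2 are in the *ZMAT3* table and 5 in the siRNA table. *COL1A1*, a fibroblast marker, was at 9.19 to 9.78 CPM in *ZMAT3*-WT and 10.4 to 10.9 CPM in *ZMAT3*-KO libraries, and *CD68*, a leukocyte marker, at 1.61 to 2.13 and 3.2 to 3.89 CPM. With siCTRL and sip53 the fibroblast markers *COL1A1* and *PDGFRB* summed to 4.22 to 5.64 and 6.12 to 7.07 FPKM, and the leukocyte markers *CD68* and *LYZ* to 3.89 to 10.8 and 13.3 to 27.7 FPKM. The markers within each sum went opposite ways. *COL1A1* went from 5.41 and 4.08 to 5.96 and 7.06 FPKM, and *PDGFRB* from 0.23 and 0.14 to 0.16 and 0.01 FPKM. *CD68* went from 7.97 and 2.06 to 11.6 and 26.93 FPKM, and *LYZ* from 2.86 and 1.83 to 1.74 and 0.74 FPKM. The endothelial marker *VWF* did not exceed 0.16 FPKM. The part of these marker differences in the results was not tested. In these bulk samples fewer cells of a type and less RNA per cell cannot be told apart.

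To show where the members differ in sequence, the promoter windows of 6 of them are given, from 250 bases before to 50 after a RefSeq start site (GRCh38.p14), 5′ to 3′ on the gene's strand. The 3 ID genes are close relatives that did not move together, *SMAD3* had the largest change in *ZMAT3*-KO cells, and *SMAD6* and *SMAD7* are the inhibitory pair of which *SMAD7* passed a test and *SMAD6* did not. Capitals mark matches, on either strand, to GGCGCC (a GC-rich element bound by BMP SMADs), CAGAC (the short SMAD-binding element), GTCTAGAC (the palindromic SMAD-binding element), TGAGTCA (AP-1) or TGACGTCA (the cyclic AMP response element), and no matches overlapped. *ID1* lies at chr20:31605039-31605338 on the plus strand, *ID2* at chr2:8681806-8682105 on the plus strand, *ID3* at chr1:23559452-23559751 on the minus strand, *SMAD3* at chr15:67065352-67065651 on the plus strand (the first of its 5 windows), *SMAD6* at chr15:66701986-66702285 on the plus strand, and *SMAD7* at chr18:48950916-48951215 on the minus strand (the first of its 3 windows).
ID1: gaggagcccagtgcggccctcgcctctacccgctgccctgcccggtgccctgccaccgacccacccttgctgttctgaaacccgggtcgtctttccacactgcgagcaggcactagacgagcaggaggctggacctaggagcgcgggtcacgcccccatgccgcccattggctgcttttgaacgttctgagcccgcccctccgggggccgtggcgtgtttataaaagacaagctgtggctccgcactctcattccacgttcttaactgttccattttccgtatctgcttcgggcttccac
ID2: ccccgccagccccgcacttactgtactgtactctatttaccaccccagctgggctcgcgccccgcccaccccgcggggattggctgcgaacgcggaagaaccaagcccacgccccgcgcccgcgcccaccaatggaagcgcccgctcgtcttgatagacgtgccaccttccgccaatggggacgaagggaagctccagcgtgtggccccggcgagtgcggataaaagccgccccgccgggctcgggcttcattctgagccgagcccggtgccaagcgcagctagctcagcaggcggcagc
ID3: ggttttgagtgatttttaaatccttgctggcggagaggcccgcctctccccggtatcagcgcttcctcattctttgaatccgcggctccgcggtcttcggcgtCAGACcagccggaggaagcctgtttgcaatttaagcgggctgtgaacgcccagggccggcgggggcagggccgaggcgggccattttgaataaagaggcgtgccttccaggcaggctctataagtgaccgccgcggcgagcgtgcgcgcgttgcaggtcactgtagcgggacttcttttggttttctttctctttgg
SMAD3: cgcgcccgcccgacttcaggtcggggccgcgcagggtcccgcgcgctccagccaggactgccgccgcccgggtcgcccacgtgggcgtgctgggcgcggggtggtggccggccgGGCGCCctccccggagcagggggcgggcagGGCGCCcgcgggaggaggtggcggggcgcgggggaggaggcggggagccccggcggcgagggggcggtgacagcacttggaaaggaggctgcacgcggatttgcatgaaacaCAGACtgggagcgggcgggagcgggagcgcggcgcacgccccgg
SMAD6: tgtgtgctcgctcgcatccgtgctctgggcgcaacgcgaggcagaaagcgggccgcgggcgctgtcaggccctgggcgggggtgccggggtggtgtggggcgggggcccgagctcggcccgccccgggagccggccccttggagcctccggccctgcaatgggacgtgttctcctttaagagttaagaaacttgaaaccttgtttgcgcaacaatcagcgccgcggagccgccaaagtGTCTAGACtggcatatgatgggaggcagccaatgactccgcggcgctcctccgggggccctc
SMAD7: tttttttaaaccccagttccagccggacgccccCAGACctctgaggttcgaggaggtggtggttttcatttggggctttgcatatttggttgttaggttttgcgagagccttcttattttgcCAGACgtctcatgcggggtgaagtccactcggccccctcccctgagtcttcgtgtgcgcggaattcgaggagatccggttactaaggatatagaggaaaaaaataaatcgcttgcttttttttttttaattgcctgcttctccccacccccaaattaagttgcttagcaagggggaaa

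The *ID1* and *ID2* windows held none of these letters, and *ID3* held CAGAC once, at -147 from the start site. The *SMAD6* window held the palindromic element at -12, as did 0.202% of the 35116 RefSeq windows of this length. The first *SMAD3* window held GGCGCC at -136 and at -106, and the first *SMAD7* window held CAGAC at -217 and at -128. Over the 18 windows of the 10 genes, GGCGCC was found in 4 (22.2%), against 19.2% of all windows, and CAGAC in 11 (61.1%), against 45.3%. AP-1 sites were found in 1 of the 18 windows, the third of *SMAD3*, against 4.95% of all windows, and the cyclic AMP response element in 1, that of *SKIL*, against 1.85%. GTCTAGAC was found in the *SMAD6* window alone among the 18. These matches describe the letters of the windows only, and which start sites HCT116 cells used was not analysed here.

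In *ZMAT3*-KO cells most of these genes differed from *ZMAT3*-WT cells, in both directions and by modest amounts. *SMAD3* fell 1.85-fold and *ID3* rose 1.51-fold, the 2 changes that also reached 1.5-fold. *SMAD7*, *BMPR2*, *ID1*, *SKIL*, *BMPR1A* and *BMP4* were higher by 1.06- to 1.39-fold and *ID2* was 1.24-fold lower. Of the 10 genes, 7 rose and 2 fell with an adjusted p under 0.05 (limma, two-sided, Benjamini-Hochberg adjustment over all 13029 genes), where 28.7% of all genes were higher and 30.1% lower. When 1.5-fold was required as well, 1 member was called higher and 1 lower, beside 4.6% and 4.37% of all genes. The median log2 fold change was 0.20 for the 10 genes and -0.005 for all genes. With 3 libraries a group, exact permutation (two-sided) reaches no p under 0.1, so only the fit across all genes could pass the threshold.

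**Figure D1:**
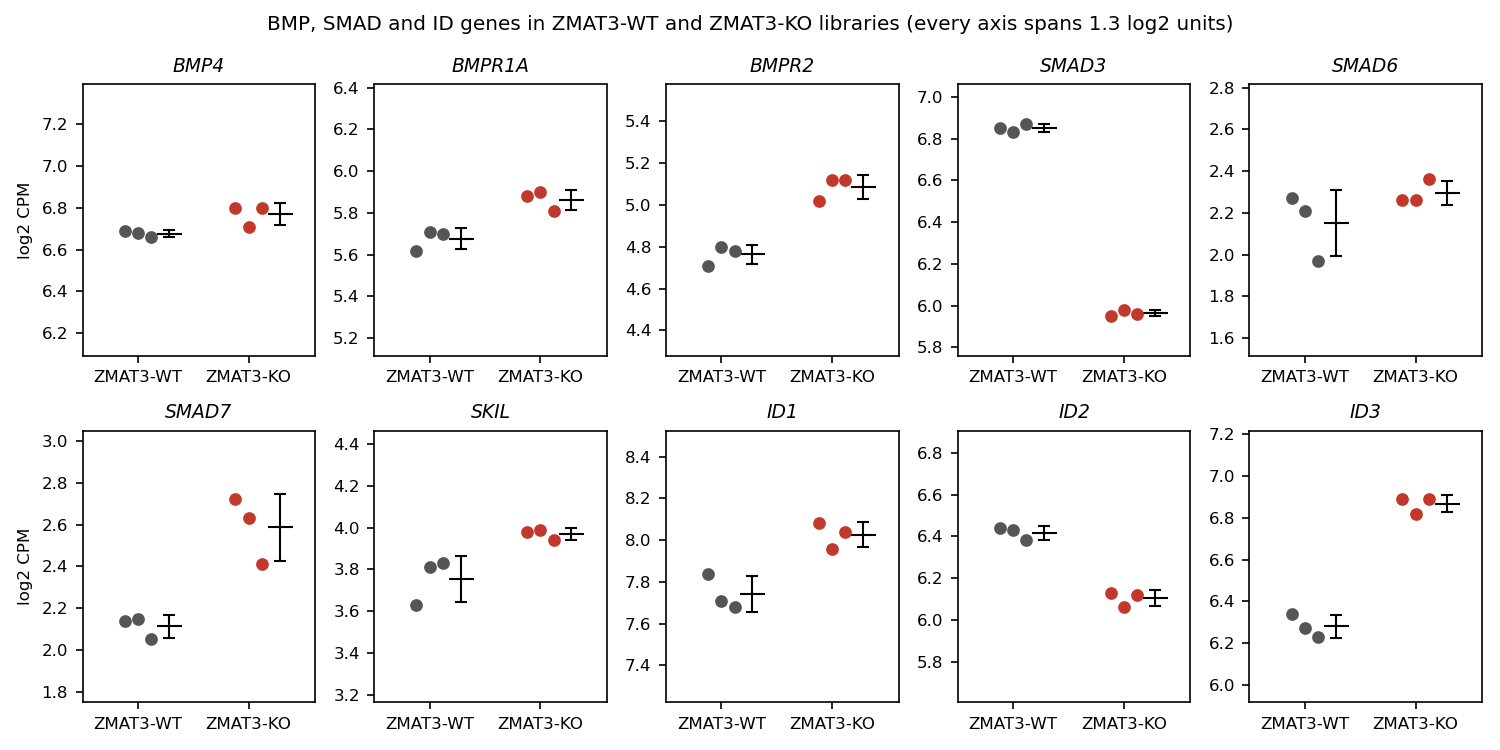
Log2 CPM (vertical axes, each spanning 1.3 log2 units) of the 10 genes in 3 ZMAT3-WT (grey) and 3 ZMAT3-KO (red) libraries; points are libraries, bars the mean ± SD. SMAD3 and ID2 sit lower in every ZMAT3-KO library, SMAD6 overlaps between the groups, and the other 7 sit higher. The share of all genes without overlap was not computed. At an adjusted limma p of 0.05, 28.7% of all genes were higher and 30.1% lower.

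The ligand and its receptors were all slightly higher in *ZMAT3*-KO cells. *BMP4*, a ligand made by epithelial and stromal cells, lies on chromosome 14 of hg38 from 53949736 to 53958761 (GENCODE release 44). It had 6.69, 6.68 and 6.66 log2 CPM in *ZMAT3*-WT and 6.80, 6.71 and 6.80 in *ZMAT3*-KO libraries. The groups did not overlap, and the log2 fold change was 0.09 (SE 0.033, limma adjusted p = 0.0312). This call was lost without *ZMAT3*-WT replicate 2 or 3 or *ZMAT3*-KO replicate 1 or 3, with log2 fold changes of 0.07 to 0.12 over the libraries left out. *BMPR1A*, the type I receptor, on chromosome 10 from 86756596 to 86932825, had 5.62, 5.71 and 5.70 log2 CPM in *ZMAT3*-WT and 5.88, 5.90 and 5.81 in *ZMAT3*-KO libraries. Every *ZMAT3*-KO library was above every *ZMAT3*-WT library, with a log2 fold change of 0.19 (SE 0.038, limma adjusted p = 0.001). *BMPR2*, the type II receptor, on chromosome 2 from 202376327 to 202567751, had 4.71, 4.80 and 4.78 in *ZMAT3*-WT and 5.02, 5.12 and 5.12 log2 CPM in *ZMAT3*-KO libraries. Here too the groups were apart, and *BMPR2* rose 1.25-fold (log2 fold change 0.33, SE 0.044, limma adjusted p = 3.99e-05).

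Among the SMAD genes, the receptor SMAD of TGF-β fell while an inhibitory SMAD rose. *SMAD3*, on chromosome 15 from 67063763 to 67195173, had 6.85, 6.83 and 6.87 log2 CPM in *ZMAT3*-WT and 5.95, 5.98 and 5.96 in *ZMAT3*-KO libraries. The gap between the groups was many times the spread within either, with a log2 fold change of -0.89 (95% confidence interval -0.95 to -0.83, limma adjusted p = 8.12e-11). Of all genes tested, 96% had a smaller absolute log2 fold change than *SMAD3*. *SMAD6* ends 281 kb before *SMAD3* on the same strand of chromosome 15, from 66702236 to 66782849. It had 2.27, 2.21 and 1.97 log2 CPM in *ZMAT3*-WT and 2.26, 2.26 and 2.36 in *ZMAT3*-KO libraries. These values overlapped, and the log2 fold change of 0.15 (95% confidence interval -0.06 to 0.35, limma adjusted p = 0.195) did not pass the test. *SMAD7*, which acts on the type I receptors, lies on chromosome 18 from 48919853 to 48950965 and had 2.14, 2.15 and 2.05 log2 CPM in *ZMAT3*-WT and 2.72, 2.63 and 2.41 in *ZMAT3*-KO libraries. All *ZMAT3*-KO values were higher, though spread more widely, and *SMAD7* rose 1.39-fold (log2 fold change 0.47, SE 0.090, limma adjusted p = 0.000655). *SKIL*, a co-repressor of SMAD complexes, on chromosome 3 from 170357342 to 170396835, had 3.63, 3.81 and 3.83 in *ZMAT3*-WT and 3.98, 3.99 and 3.94 log2 CPM in *ZMAT3*-KO libraries. The lowest *ZMAT3*-KO library was above the highest *ZMAT3*-WT library, and the log2 fold change was 0.21 (SE 0.059, limma adjusted p = 0.00813).

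The ID genes did not move as one. *ID1*, on chromosome 20 from 31605283 to 31606515, had 7.84, 7.71 and 7.68 log2 CPM in *ZMAT3*-WT and 8.08, 7.96 and 8.04 in *ZMAT3*-KO libraries. The groups were apart, and *ID1* rose 1.22-fold (log2 fold change 0.28, SE 0.042, limma adjusted p = 9.59e-05). *ID3*, on chromosome 1 from 23557926 to 23559501, had 6.34, 6.27 and 6.23 in *ZMAT3*-WT and 6.89, 6.82 and 6.89 log2 CPM in *ZMAT3*-KO libraries. No values overlapped, and the log2 fold change was 0.59 (95% confidence interval 0.51 to 0.67, limma adjusted p = 2.89e-08). Its fold change of 1.51 is at the threshold of 1.5, and fell below it without *ZMAT3*-WT replicate 3, *ZMAT3*-KO replicate 1 or *ZMAT3*-KO replicate 3, the log2 fold change being 0.57 to 0.62 over the 6 libraries left out in turn. *ID2*, on chromosome 2 from 8678845 to 8684461, had 6.44, 6.43 and 6.38 log2 CPM in *ZMAT3*-WT and 6.13, 6.06 and 6.12 in *ZMAT3*-KO libraries. It went the other way from *ID1* and *ID3*, being lower in every *ZMAT3*-KO library (log2 fold change -0.31, SE 0.033, limma adjusted p = 5.48e-06). In GENCODE the antisense gene *ID2-AS1* overlaps exons of *ID2* on the opposite strand, as unnamed genes do for *SMAD3* and *BMP4*. The *ZMAT3* libraries were stranded, and the strand of the siRNA libraries is not given in the sources used here. An unnamed gene on the same strand overlaps exons of *BMPR2*, so reads of that gene and of *BMPR2* could be split between them and its values are less certain.

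Differences between 2 genes within a library were also compared, for 5 pairs in each experiment. A common scaling factor cancels in them, but the adjustment that gave the 6 *ZMAT3* libraries one distribution of values can move genes of different levels by different amounts. The log2 CPM of *ID3* minus that of *ID2* was -0.10, -0.16 and -0.15 in *ZMAT3*-WT and 0.77, 0.76 and 0.77 in *ZMAT3*-KO libraries. This shift of 0.90 was far larger than the spread between replicates (exact permutation test, two-sided, p = 0.1, the smallest the design allows, adjusted p = 0.125 over the 5 pairs). *ID1* minus *ID2* shifted by 0.59 and *ID1* minus *ID3* by -0.31, also without overlap. The log2 CPM of *SMAD7* minus that of *SMAD3* was -4.71, -4.69 and -4.82 in *ZMAT3*-WT and -3.23, -3.35 and -3.55 in *ZMAT3*-KO libraries, a shift of 1.36 (exact permutation test, two-sided, p = 0.1). For *SMAD7* minus *SMAD6* the values were -0.13, -0.07 and 0.08 against 0.46, 0.36 and 0.05, and the groups overlapped (exact permutation test, two-sided, p = 0.2).

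The sip53 comparison had 2 libraries a group and was called by an unadjusted p, so its counts cannot be set against those above. The siRNA libraries were compared on log2(FPKM + 0.1) in the 14274 genes whose mean reached 0.5 FPKM, a scale that understates the change of low genes. *SMAD7*, *BMPR2* and *ID3* were lower, by 2.29-, 1.5- and 1.41-fold, at an unadjusted limma p of 0.05, and no member was higher. That is 0 of 10 genes higher and 3 of 10 lower, where 5.86% of all genes were higher and 9.28% lower (836 and 1325 genes, or 1120 and 1048 after centring of each library on its median). At an adjusted p of 0.05 none of the 10 passed, while 0.273% of all genes did. The median log2 fold change of the members was -0.25 and that of all genes -0.040. Exact permutation (two-sided) reaches no p under 0.333 with 2 libraries a group.

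**Figure D2:**
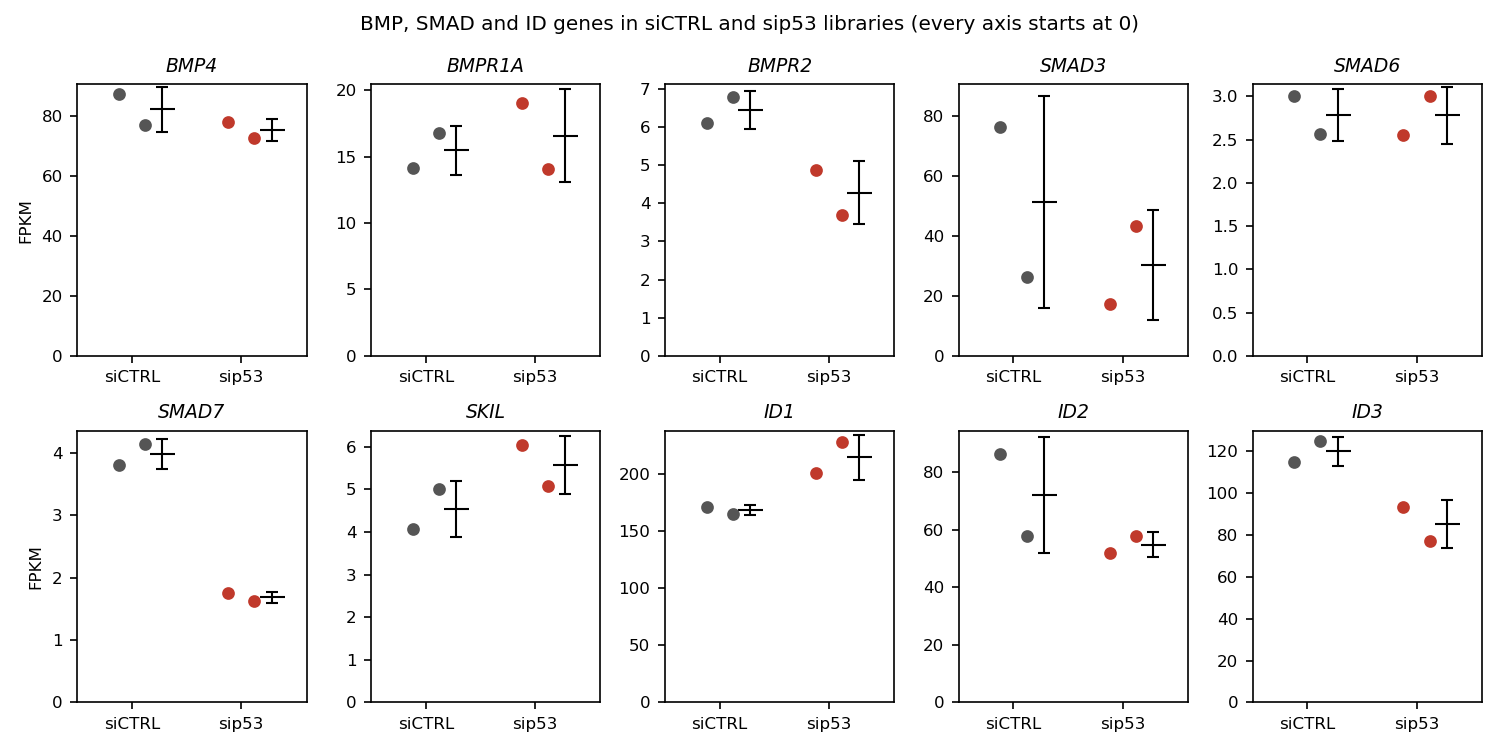
FPKM (vertical axes, each from 0) of the 10 genes in 2 siCTRL (grey) and 2 sip53 (red) libraries; points are libraries, bars the mean ± SD. SMAD7, BMPR2 and ID3 sit lower and ID1 and SKIL higher in both sip53 libraries, while the SMAD3 libraries of each group lie far apart. ID1 and SKIL did not pass the unadjusted p. The share of all genes without overlap was not computed. At an unadjusted limma p of 0.05, 5.86% of all genes were higher and 9.28% lower.

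FPKM is a value per length, so levels can be ordered between genes. With siCTRL *ID1* was highest at 168 ± 4.49 FPKM, followed by *ID3* at 120 ± 7.13, *BMP4* at 82 ± 7.38, *ID2* at 72.1 ± 20.2 and *SMAD3* at 51.4 ± 35.5 FPKM (SD, n = 2). *BMP4*, *ID2* and *SMAD3* overlapped with their neighbours in this order. *BMPR1A* at 15.5 ± 1.86 and *BMPR2* at 6.44 ± 0.495 FPKM came next. *SKIL* at 4.54 ± 0.651 and *SMAD7* at 3.98 ± 0.24 FPKM overlapped, and *SMAD6* was lowest at 2.79 ± 0.304 FPKM.

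*BMP4* was at 87.3 and 76.8 FPKM in the siCTRL libraries and at 77.8 and 72.6 FPKM in the sip53 libraries, and these overlapped (log2 fold change -0.12, 95% confidence interval -0.58 to 0.33). For *BMPR1A* the values were 14.2 and 16.8 with siCTRL and 19.1 and 14.1 FPKM with sip53, which bracketed the controls (log2 fold change 0.09, 95% confidence interval -0.48 to 0.66). Neither interval leaves room for a 2-fold change. *BMPR2* stood at 6.09 and 6.79 FPKM in siCTRL and at 4.87 and 3.69 FPKM in sip53 libraries. Both sip53 libraries were below both controls, and the log2 fold change of -0.59 had a 95% confidence interval of -1.16 to -0.02 (limma unadjusted p = 0.0439, adjusted p = 0.312).

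*SMAD7* stood at 3.81 and 4.15 FPKM in siCTRL and at 1.75 and 1.62 FPKM in sip53 libraries. It was the clearest difference among the 10 genes in this experiment, with a log2 fold change of -1.19 (SE 0.226, limma unadjusted p = 0.00263, adjusted p = 0.125). Of all genes tested, 95.7% had a smaller absolute log2 fold change. It was between -1.25 and -1.13 with each library left out, and its unadjusted p stayed below 0.05 in each of these fits. *SMAD6*, its closest relative, stood at 3.00 and 2.57 FPKM in siCTRL and at 2.55 and 3.01 FPKM in sip53 libraries. The groups spanned the same range (log2 fold change -0.0031, 95% confidence interval -0.60 to 0.59). On the log2 scale *SMAD7* minus *SMAD6* was 0.33 and 0.67 with siCTRL and -0.52 and -0.85 with sip53 (exact permutation test, two-sided, p = 0.333, the smallest the design allows).

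*SMAD3* stood at 76.5 and 26.3 FPKM in siCTRL and at 17.2 and 43.2 FPKM in sip53 libraries, so replicates of a group differed more than the groups did. The log2 fold change was -0.72 (95% confidence interval -2.33 to 0.90, limma adjusted p = 0.661), and it was 0.05 without siCTRL replicate 1, -0.05 without sip53 replicate 1, -1.48 without siCTRL replicate 2 and -1.38 without sip53 replicate 2. The higher libraries were siCTRL replicate 1 and sip53 replicate 2. Over all 14274 genes the deviations of these 2 libraries from their group means were correlated (Pearson's r = 0.62 across genes, which are not independent replicates), and the part of this in the *SMAD3* values was not tested. *SKIL* stood at 4.08 and 5.00 FPKM in siCTRL and at 6.05 and 5.08 FPKM in sip53 libraries. The sip53 values were the higher ones by a narrow margin, and the log2 fold change of 0.29 (95% confidence interval -0.26 to 0.84) did not pass the test.

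*ID1* stood at 171 and 165 FPKM in siCTRL and at 201 and 228 FPKM in sip53 libraries. Both sip53 libraries were higher, but the log2 fold change of 0.35 (95% confidence interval -0.12 to 0.82, limma adjusted p = 0.45) did not pass. *ID3* stood at 115 and 125 FPKM in siCTRL and at 93.4 and 77.2 FPKM in sip53 libraries, the latter below both controls (log2 fold change -0.50, SE 0.195, limma unadjusted p = 0.0484, adjusted p = 0.325). *ID2* stood at 86.3 and 57.8 FPKM in siCTRL and at 51.8 and 57.8 FPKM in sip53 libraries, with no clear gap (log2 fold change -0.37, 95% confidence interval -0.99 to 0.26). The log2 value of *ID1* minus that of *ID3* went from 0.58 and 0.40 with siCTRL to 1.10 and 1.56 with sip53 (exact permutation test, two-sided, p = 0.333). For *ID3* minus *ID2*, by contrast, the values were 0.41 and 1.11 with siCTRL and 0.85 and 0.42 with sip53 and overlapped, with a shift of -0.12 (exact permutation test, two-sided, p = 1). *ID1* minus *ID2* shifted by 0.71 without overlap (exact permutation test, two-sided, p = 0.333), and *SMAD7* minus *SMAD3* by -0.48 with overlap (exact permutation test, two-sided, p = 0.667). Over the 5 pairs the lowest adjusted p of these exact tests was 0.556. The calls of *ID3* and *BMPR2* were near the threshold: after centring of each library on its median their log2 fold changes were -0.42 and -0.51 and neither passed, and both also missed it without a variance trend. With each library left out in turn, *ID3* was between -0.63 and -0.36 and missed the threshold every time, and *BMPR2* was between -0.79 and -0.39 and passed it only without sip53 replicate 1.

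**Figure D3:**
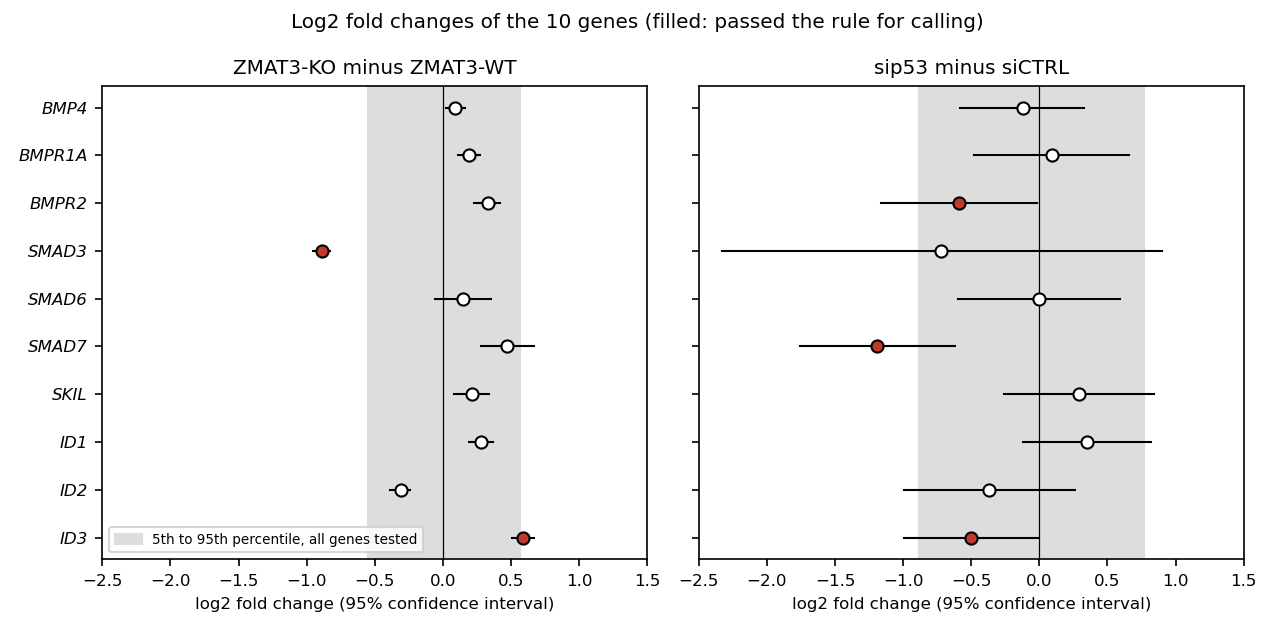
Log2 fold changes (horizontal axes) of the 10 genes in ZMAT3-KO against ZMAT3-WT (left) and sip53 against siCTRL (right) libraries, with 95% confidence intervals from limma; filled points passed the rule for calling and grey bands run from the 5th to the 95th percentile of all genes tested. SMAD3 at -0.89 lies outside the band on the left, with ID3 at 0.59 on its upper edge, and SMAD7 at -1.19 outside that on the right.

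The 2 experiments share no libraries, and the plot of log2 fold changes sets them side by side. *SMAD7* was at 0.47 in *ZMAT3*-KO cells and at -1.19 with sip53, *ID3* at 0.59 and -0.50, and *BMPR2* at 0.33 and -0.59, each in opposite directions and past the threshold in both experiments, which was an adjusted p in the first and an unadjusted p in the second. Of these, only *ID3* also reached 1.5-fold in *ZMAT3*-KO cells, and narrowly. With sip53 the calls of *ID3* and *BMPR2* were near the threshold and were lost under several other settings. *ID1* was at 0.28 and 0.35, *ID2* at -0.31 and -0.37, and *SMAD3* at -0.89 and -0.72, with the same sign in both but past the threshold with *ZMAT3*-KO only. Whether any gene's change differs between the experiments was not tested, since the tables were normalized separately. *ZMAT3* itself was 7.43-fold lower in *ZMAT3*-KO cells and 4.96-fold lower with sip53.

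A list of 73 other genes of the pathway, grouped by role, shows what surrounded these members. Of these, 43 had values in the *ZMAT3* experiment, of which 6 were higher and 4 lower at an adjusted limma p of 0.05 and 1.5-fold, and 18 were higher and 12 lower at the adjusted p alone. Among all genes 4.6% and 4.37% were called by the first rule, and 28.7% and 30.1% by the second. The median log2 fold change was 0.04 for the 43 genes and -0.005 for all genes. Their largest changes were in ligands and targets, the ligands *BMP2* and *INHBB* being at low levels. Of the 5 other SMAD genes 2 passed the adjusted p, both higher, and none reached 1.5-fold. Of the ID relatives and E protein genes, 2 had values, and both were higher at the adjusted p without reaching 1.5-fold.

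*BMP2*, a ligand close to BMP4, had -2.33, -1.23 and -2.99 log2 CPM in *ZMAT3*-WT and 1.46, 1.37 and 1.41 in *ZMAT3*-KO libraries. It was low in all *ZMAT3*-WT libraries and rose 12.1-fold (95% confidence interval 7.14 to 20.5, limma adjusted p = 2.48e-06). The filter behind the deposited values is not stated, so *BMP2* may have passed it only through the *ZMAT3*-KO libraries. Its counting among the higher genes is therefore not evidence of a direction. With a mean of at least 0 log2 CPM required, 4 pathway genes were called higher and 3 lower. *GDF11*, another ligand, rose 1.66-fold, while *INHBB*, which encodes an activin subunit, fell 3.78-fold from 0.04 ± 0.20 to -1.88 ± 0.36 log2 CPM (SD, n = 3). Of the receptors, *ACVRL1*, a type I receptor for BMP9 and BMP10, rose 2.79-fold from a low level of -0.97 ± 0.23 to 0.51 ± 0.15 log2 CPM (SD, n = 3). Genes of 2 further inhibitors rose, the pseudoreceptor *BAMBI* by 1.57-fold and *PMEPA1*, which sequesters receptor SMADs, by 2.19-fold. *PMEPA1* too was at a low level, going from -0.30 ± 0.23 to 0.84 ± 0.08 log2 CPM (SD, n = 3). Like *BMP2*, *ACVRL1* and *PMEPA1* may have passed the unstated filter only through the *ZMAT3*-KO libraries, and *INHBB* only through the *ZMAT3*-WT libraries. Their counting among the higher and lower genes is likewise not evidence of a direction. *SMURF2*, a ubiquitin ligase that acts with SMAD7, fell 1.53-fold from 7.56 ± 0.05 to 6.95 ± 0.02 log2 CPM (SD, n = 3).

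Targets of the pathway moved in both directions in *ZMAT3*-KO cells. *CCN2*, a matricellular protein gene that also responds to YAP, had 4.37, 4.47 and 4.14 log2 CPM in *ZMAT3*-WT and 0.56, 0.20 and 0.92 in *ZMAT3*-KO libraries, a 13.6-fold decrease (limma adjusted p = 4.65e-10). The homeobox genes *MSX1* and *MSX2*, both known BMP targets, went opposite ways. *MSX1* fell 2.02-fold from 6.38 ± 0.09 to 5.37 ± 0.03 log2 CPM (SD, n = 3), and *MSX2* had 4.03, 3.97 and 4.04 in *ZMAT3*-WT and 4.86 in each *ZMAT3*-KO library, a 1.80-fold increase (limma adjusted p = 4.2e-09).

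**Figure D4:**
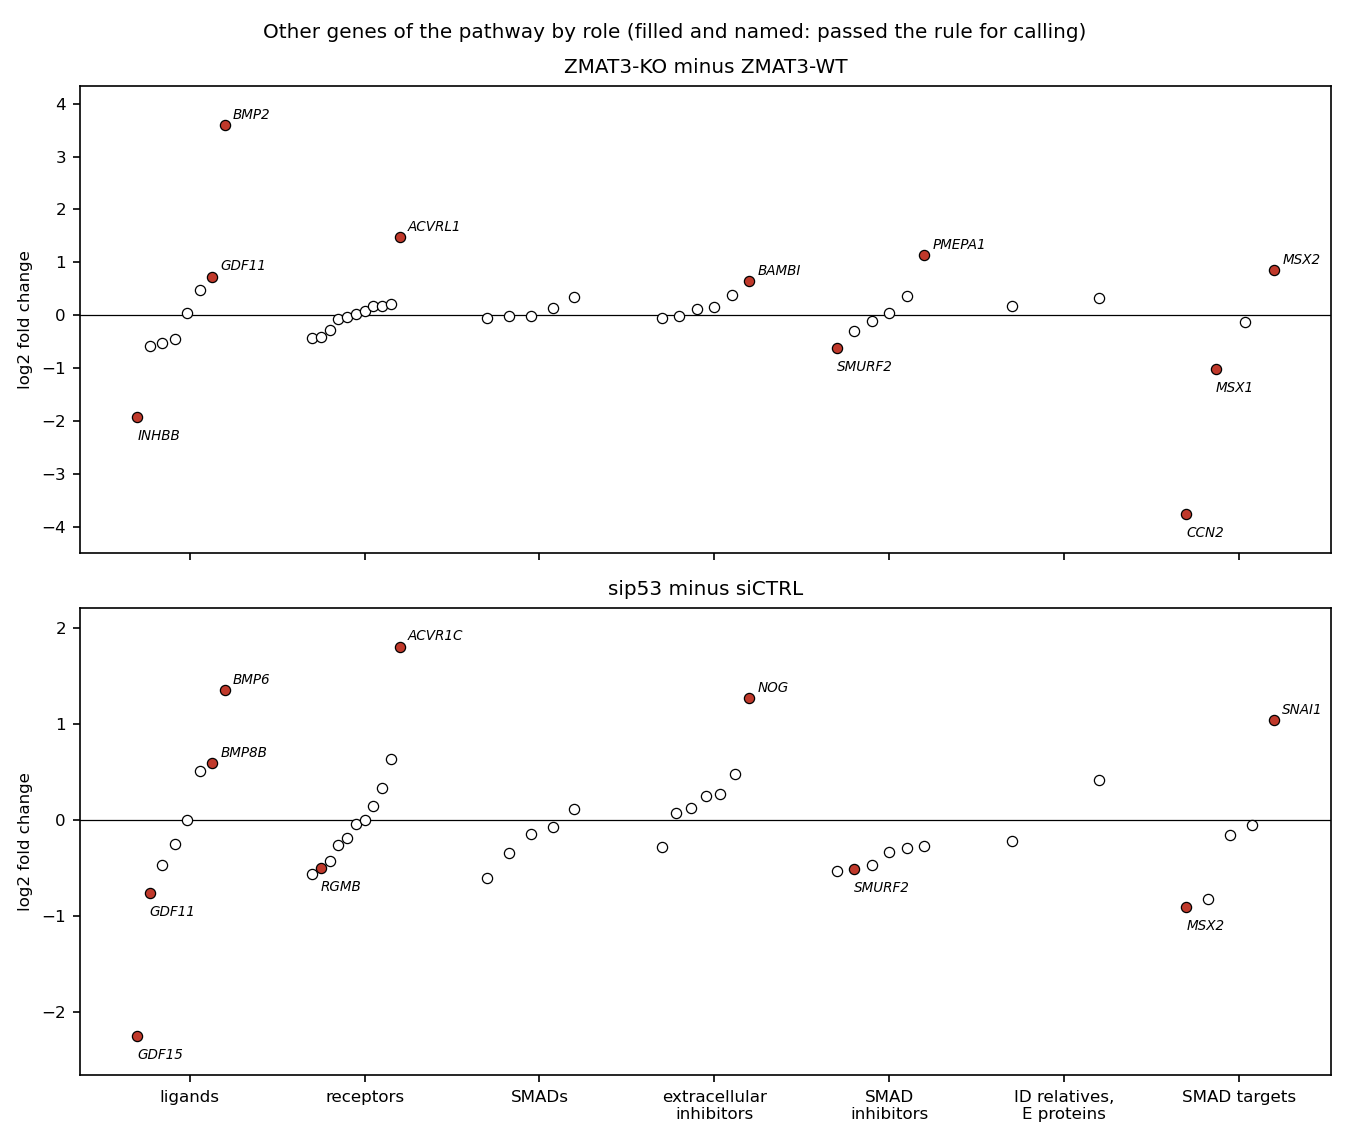
Log2 fold changes (vertical axes) of the other pathway genes by role, ordered by value within a role, in ZMAT3-KO against ZMAT3-WT (top) and sip53 against siCTRL (bottom), for all but 1 of the tested genes; filled and named points passed the rule for calling. BMP2 and CCN2 lie farthest from 0 at the top and GDF15 at the bottom.

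In the siRNA experiment 57 of the 73 genes had values and 45 passed the filter on low values. With sip53, 5 were higher and 6 lower by the unadjusted limma p, and none passed an adjusted p of 0.05. Among all genes 5.86% were higher, 9.28% lower and 0.273% past the adjusted p, and the median log2 fold change was -0.16 for the 45 genes and -0.040 for all genes. *GDF15*, a distant TGF-β family member and a known p53 target, stood at 244 and 211 FPKM in siCTRL and at 40.0 and 56.9 FPKM in sip53 libraries, which is 4.74-fold lower (limma unadjusted p = 0.00016, adjusted p = 0.0531). *BMP6* went from 0.58 ± 0.0141 to 1.65 ± 0.191 FPKM and *BMP8B* from 4.15 ± 0.0354 to 6.31 ± 0.099 FPKM (SD, n = 2), 2.56- and 1.51-fold higher. The type I receptor gene *ACVR1C* and *NOG*, which encodes the BMP antagonist noggin, stood at 0.33 ± 0.113 and 0.29 ± 0.0424 FPKM with siCTRL and at 1.38 ± 0.156 and 0.835 ± 0.00707 FPKM with sip53 (SD, n = 2). Both passed the filter on low values only through the sip53 libraries, so their counting among the higher genes is not evidence of a direction. *SNAI1*, a transcriptional repressor, was 2.06-fold higher.

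*GDF11* was 1.69-fold and *RGMB*, a BMP co-receptor, 1.41-fold lower with sip53. *MSX2* stood at 7.76 and 5.81 FPKM in siCTRL and at 3.48 and 3.62 FPKM in sip53 libraries, 1.87-fold lower, where it was higher in *ZMAT3*-KO cells. *SMURF2* stood at 230 and 197 FPKM in siCTRL and at 151 and 149 FPKM in sip53 libraries, 1.42-fold lower, and was lower in both experiments. Of the 5 other SMAD genes, none passed the threshold with sip53.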

How the data were processed

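RNA of the *ZMAT3* libraries was captured on oligo(dT) beads. For the *ZMAT3* libraries the authors used Cutadapt for trimming, STAR and hg38 for alignment and RSEM for quantification. The deposited values are log2 CPM, and the step between is not given in the sources used here. All 6 libraries share 1 distribution of values. The deposited siRNA values were read as FPKM from the values: for 345 single-transcript genes, value times length in bases, divided by the deposited mean signal, had a median of 35.2, where FPKM would give 32.4. The submitters' processing notes list CASAVA 1.8.2, TopHat2 2.0.8 and FastQC 0.11.2, and the builds hg19 and hg38, without their role. The deposited tables also hold the authors' own ratio (fold change), log2 fold change, score (test statistic, standard error) and p-value columns, which were not used.

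Each table was fitted with limma 3.58.1 in R 4.3.3 (two-sided, lmFit and trended eBayes, Benjamini-Hochberg over all genes): the log2 CPM values as deposited, and log2(FPKM + 0.1) where the mean reached 0.5 FPKM. The rule for calling was an adjusted p of 0.05 with 1.5-fold for *ZMAT3* libraries and an unadjusted p of 0.05 for siRNA libraries, after the paper. P-values measure the spread between cultures. Values were handled with Python 3.11.15, pandas 2.3.3, numpy 2.4.6 and scipy 1.17.1, and drawn with matplotlib 3.10.9. Promoters are from RefSeq (all 10 genes matched by symbol) and loci from GENCODE release 44. The fits were tested on simulated data with independent errors, so the correlated deviations of the siRNA libraries were not covered. The members and lists were chosen with earlier results of these data known. Named pathway genes are up to 3 called genes per role and direction with the largest change; some genes that the rule names are not reported here.

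Same-numbered libraries did not deviate together (correlation -0.09 to -0.02 in the *ZMAT3* and -0.62 in the siRNA experiment), so the replicate number was used as a block only as an alternative. The other alternatives were pseudocounts, filters, centring, no variance trend, other thresholds and leaving out each library.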

Additional observations from a re-analysis of the deposited data

How the results depend on the processing

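The values carry no depth, so counting error is unknown. Of the members' log2 fold changes under the other settings, 105 in the *ZMAT3* experiment kept their side of an adjusted p of 0.05 and 81 in the siRNA experiment their side of an unadjusted p of 0.05. In the first, *BMP4* missed the adjusted p under 5 settings, and *ID3* passed it under each setting but fell below 1.5-fold under 4 of them. In the second, *ID3* and *BMPR2* lost their calls in 16 instances and *SMAD3* gained one in 1. No called value changed sign.

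In the *ZMAT3* experiment, the adjusted p without a fold threshold called 7 members higher and 2 lower, 18 and 12 pathway genes, and 3734 and 3925 of all genes. A 2-fold threshold called 0 members in either direction, 3 pathway genes higher and 3 lower, and 200 and 196 of all genes. A pseudocount of 1 CPM called 0 members and 397 of all genes higher, and 1 member and 388 of all genes lower. With each library left out, 0 to 1 members were called higher, beside 588 to 611 of all genes.

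In the siRNA experiment, an adjusted p of 0.05 called 0 members, 0 pathway genes in either direction, and 5 and 34 of all genes. A minimum of 5 FPKM removed *SMAD6* and *SMAD7* from the test and called 0 members in either direction. Under it 2 pathway genes were higher and 7 lower, and 555 and 911 of all genes were called. Centring each library called 1 member, *SMAD7*, and 1048 of all genes lower. Without a variance trend the same member and 1298 of all genes were called lower. With the replicate number as a block, 1 member was lower, 3 pathway genes were higher and 2 lower, and 434 and 650 of all genes were called; the samples share only a number. The crossed pairing, added after the data had been seen, called 1 member higher and 5 lower, and 2410 and 3128 of all genes. With each library left out, 1 to 2 members were lower, 2 to 4 pathway genes higher and 1 to 5 lower, and 482 to 720 and 635 to 1171 of all genes were called. The cause of these shifts was not tested. The block changed no call of a member in the *ZMAT3* experiment.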
